A study of Mus musculus with 4 samples.

Results

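Feedback genes of fibroblast growth factor (FGF) and MAP kinase signalling were followed in Trim33-deficient and Control mouse embryoid bodies. The 9 genes were taken as a list by symbol: Dusp4, Dusp6, Spry1, Spry2, Spry4, Etv4, Etv5, Il17rd and Spred1. All 9 were found among the 24015 genes of the count files. This list and the lists below were chosen with earlier results of these data known, so their shares are a description only. Embryoid bodies are stem cell aggregates that form tissues of all germ layers in suspension. Both groups came from embryonic stem cell lines of outbred strain, grown without feeders at passage 8 to 10 with LIF and 2i before differentiation, and both were harvested on day 7. The 2 Trim33-deficient libraries came from bodies given 4OH-Tamoxifen on day 4, which makes a CreERT2 transgene delete a homozygous Trim33-flox allele. The 2 Control libraries carry the genotype label wild type, although the shared culture notes describe only floxed, CreERT2-bearing lines, and the labels do not say whether Control bodies received 4OH-Tamoxifen. The labels do not say how many lines or clones were used. They describe 2 independent pairs of samples, and the replicate number was read as the pair.

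FGFs bind receptor tyrosine kinases and signal through RAS, RAF and MEK to the kinase ERK. ERK activity switches on transcription factors of the ETV family, and it also induces its own inhibitors: Sprouty and Spred proteins and Sef act upstream of ERK, and dual-specificity phosphatases remove phosphate from MAP kinases. For this reason the transcripts are widely used as a readout of FGF and ERK activity in the embryo, where FGF signalling takes part in leaving pluripotency and in forming endoderm, mesoderm and heart.

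The libraries held 13808837 and 12109547 counts in genes in the Trim33-deficient group, and 12390541 and 10422738 in Control. Trim33 stood at 43.8 and 42.3 CPM (counts scaled to a common library size, with TMM factors) in the Trim33-deficient libraries, against 93.0 and 109 CPM in the Control libraries, so that 42.6% of the Control mean was left. Its log2 fold change of −1.23 was not called by edgeR (adjusted p = 0.219) and was called by DESeq2 (adjusted p = 1.78e-06). Counts over the whole gene do not show which exons remained. Control replicate 1 stood apart, since its log2 CPM correlated with those of the other 3 libraries at only 0.932 to 0.952 (Pearson, over genes). Every level below is in TMM-normalised CPM unless a length is named, and every fold change is Trim33-deficient over Control on the log2 scale.

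All 9 feedback genes were higher in the Trim33-deficient library than in the Control library of replicate 1, by 0.27 to 1.07 on the log2 scale. In replicate 2 the same comparison put 7 of 9 below 0, where 49.4% of all genes were, and 2 above it, Dusp4 and Etv4, where 50.6% of all genes were. These 2 were also the only members whose groups did not overlap, with Trim33-deficient higher, as was so for 19.3% of all genes. The edgeR quasi-likelihood test called 0 of the 9 members over all 4 libraries, whereas DESeq2 called 1, Dusp4, at an adjusted p under 0.05. The background is low: edgeR called 0.014% of the 14259 genes tested in either direction and DESeq2 0.989%, of which 0.182% were higher and 0.807% lower in Trim33-deficient bodies. limma voom called 0 members and 0 genes. At an unadjusted edgeR p under 0.05 there were 2 members, Dusp4 and Etv4, where 7.84% of all genes reached it.

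**Figure D1:**
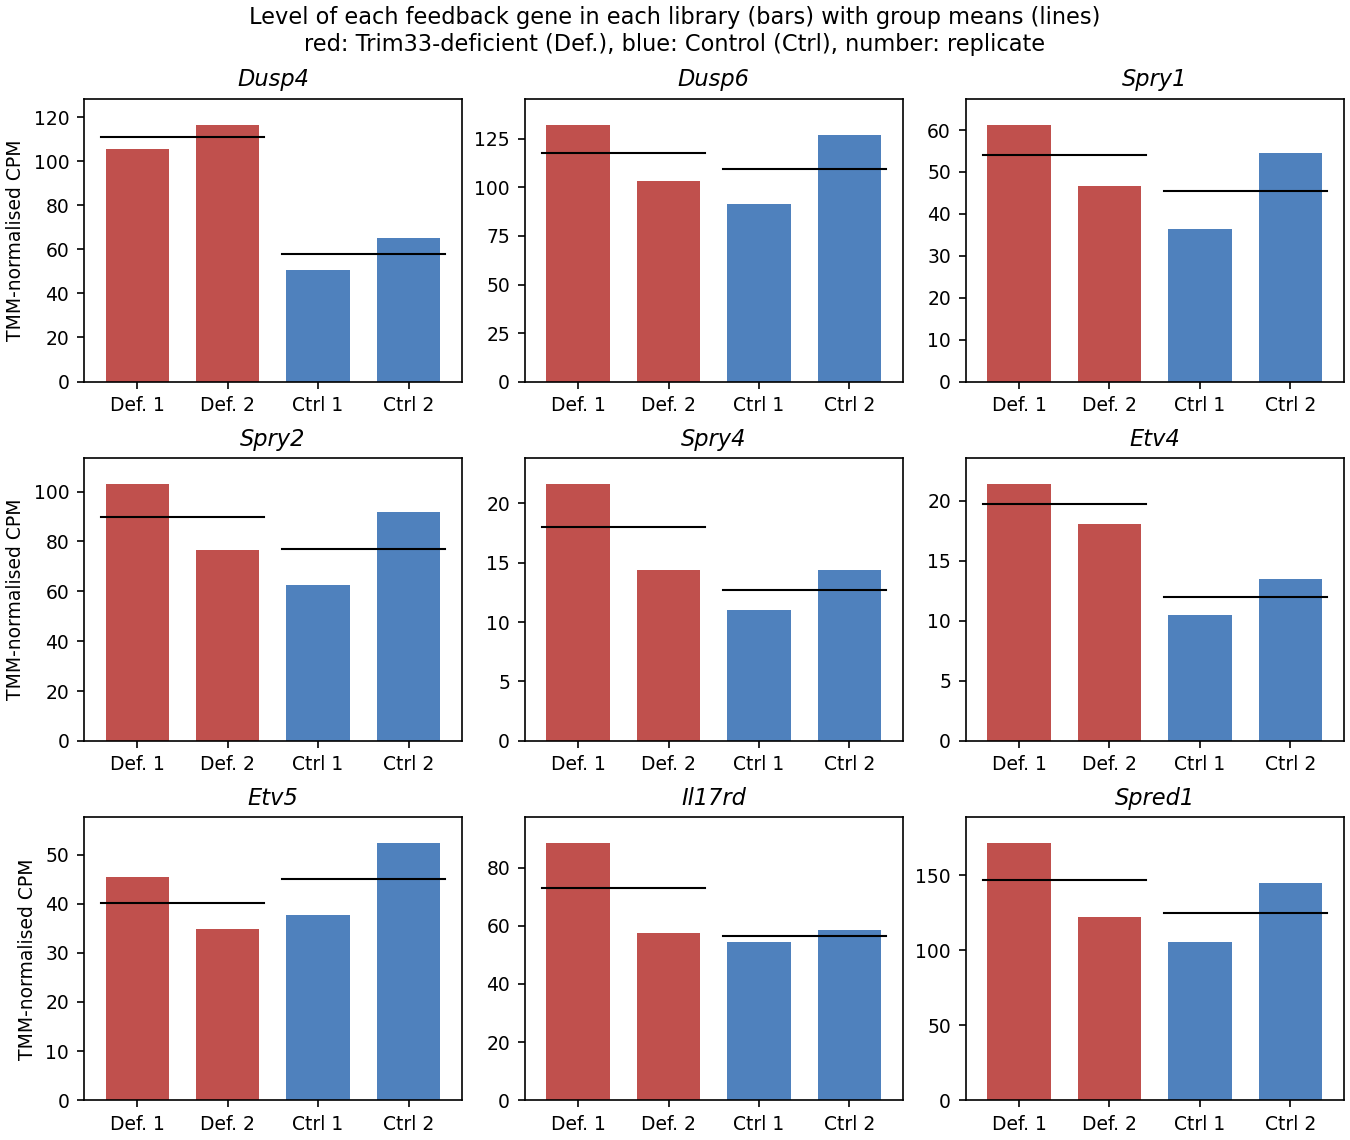
Level of each of the 9 feedback genes in TMM-normalised CPM (vertical axes, starting at 0) in the 2 Trim33-deficient libraries (red) and the 2 Control libraries (blue), with lines for the group means. Only Dusp4 and Etv4 have both red bars above both blue bars, and Trim33-deficient replicate 1 is the highest library for 7 of the 9 genes.

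Dusp4 encodes a nuclear dual-specificity phosphatase that inactivates ERK and other MAP kinases. Its gene lies on chromosome 8, from 34807297 to 34819894 on the plus strand of GRCm38. Dusp4 had 106 and 117 CPM in the Trim33-deficient libraries, against 50.4 and 65.0 CPM in the Control libraries. Both Trim33-deficient libraries were well above both Control libraries, and Trim33-deficient replicate 2, not replicate 1, was the highest. The group means were 111 ± 7.72 CPM in Trim33-deficient and 57.7 ± 10.4 CPM in Control bodies (SD, n = 2 each), a ratio of 1.93. By edgeR's quasi-likelihood test it stood 0.95 higher on the log2 scale (standard error 0.17, adjusted p = 0.421). DESeq2 gave 0.95 with a standard error of 0.23 and adjusted p = 0.00563, and edgeR's likelihood ratio test also called the gene (adjusted p = 0.0123, background 1.19%), as did DESeq2 with the replicate number as a block (adjusted p = 0.0179, background 1.31%), while limma voom did not (adjusted p = 0.424). The authors' deposited table comes from a DESeq comparison of these same groups, so it is not separate support. It lists 84 genes, where the count files hold 24015. Of the 9 members it lists 1, Dusp4, at a log2 fold change of 0.95 and DESeq adjusted p = 0.0197. With 1 library left out, the DESeq2 log2 fold change lay between 0.77 and 1.16. The DESeq2 call was lost without Trim33-deficient replicate 1, without Trim33-deficient replicate 2 and without Control replicate 1. It held only without Control replicate 2, the fit that called the most genes of these fits. The edgeR log2 fold change stayed between 0.77 and 1.15 in the fits that left out 1 library.

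Dusp6 encodes a cytoplasmic, ERK-selective phosphatase of the same family as that of Dusp4, and is a standard FGF readout. Dusp6 had 132 and 103 CPM in the Trim33-deficient libraries, against 91.7 and 127 CPM in the Control libraries. The groups overlapped, with Trim33-deficient replicate 1 close to Control replicate 2 and Trim33-deficient replicate 2 between the 2 Control libraries. It stood 0.11 higher on the log2 scale (standard error 0.22, edgeR adjusted p = 0.898). It turned to −0.12 without Control replicate 1 and to −0.08 without Trim33-deficient replicate 1. The 2 phosphatase genes therefore did not show the same pattern over the 4 libraries. Their difference from each other was not tested.

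The ETV factors among the members bind ETS motifs, so the RefSeq promoter windows of GRCm38.p6 (250 bases before to 50 after a start) were searched on both strands for the ETS motif CGGAAG and for the AP-1 motif TGACTCA. Windows were found for 6 of the 9 members, 7 windows in all. None was found for Dusp4, Etv4 and Spry4, so their promoters were not searched. The ETS motif was in 2 of the 7, against 16.9% of all 32851 windows, and the AP-1 motif in 0 of the 7, against 5.20% of all windows, so no matches of the 2 motifs overlapped. The 2 windows with the ETS motif, those of Dusp6 and Spred1, are shown up to the base before the start, 5′ to 3′ along the gene, with the motif in capitals. The Dusp6 stretch is chr10:99262981-99263230 and that of Spred1 chr2:117120821-117121070, both on the plus strand.
Dusp6: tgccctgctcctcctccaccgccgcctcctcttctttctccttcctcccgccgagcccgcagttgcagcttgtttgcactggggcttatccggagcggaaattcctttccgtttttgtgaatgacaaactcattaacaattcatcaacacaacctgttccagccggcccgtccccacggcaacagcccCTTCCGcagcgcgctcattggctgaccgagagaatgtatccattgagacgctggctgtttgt
Spred1: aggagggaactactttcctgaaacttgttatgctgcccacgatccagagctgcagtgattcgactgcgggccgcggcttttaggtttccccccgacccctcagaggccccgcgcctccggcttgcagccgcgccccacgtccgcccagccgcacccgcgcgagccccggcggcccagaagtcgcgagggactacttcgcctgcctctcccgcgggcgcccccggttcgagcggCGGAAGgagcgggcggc
In Dusp6 the motif lies on the opposite strand, 62 to 57 bases before the start, and in Spred1 on the same strand, 17 to 12 bases before it. Spred1 holds a further match on the opposite strand, within the 50 bases after the start. A match only describes the letters of these windows.

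Sprouty proteins are induced by FGF signalling and block the step from receptor to RAS and RAF. Spry1 had 61.3 and 46.6 CPM in the Trim33-deficient libraries, against 36.5 and 54.6 CPM in the Control libraries. Spry2 had 103 and 76.8 CPM in the Trim33-deficient libraries, against 62.4 and 91.9 CPM in the Control libraries. In both genes Trim33-deficient replicate 1 was the highest library, Control replicate 1 the lowest, and the groups overlapped. Spry4 was the least abundant Sprouty gene, with 21.6 and 14.3 CPM in the Trim33-deficient libraries, against 11.0 and 14.4 CPM in the Control libraries. Here Trim33-deficient replicate 1 stood above the rest, and both replicate 2 libraries were at the same level. The log2 fold changes of Spry1, Spry2 and Spry4 were 0.25, 0.22 and 0.50, with standard errors of 0.26, 0.25 and 0.30, and edgeR adjusted p of 0.804, 0.813 and 0.697. Without Control replicate 1 the values of Spry1 and Spry2 turned to −0.02 and −0.04, and that of Spry4 was 0.32. Without Trim33-deficient replicate 1 the value of Spry4 was 0.18. In the GRCm38 annotation, exons of Spry1 share 710 bases with an antisense gene, Gm42922, and the sources used here do not give the strand setting of the counting, so reads of the pair cannot be told apart. Exons of the other 8 members overlap no other annotated gene.

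Spred1, a Sprouty-related inhibitor that recruits the RAS brake neurofibromin, was the member with the highest CPM. Spred1 had 172 and 122 CPM in the Trim33-deficient libraries, against 105 and 145 CPM in the Control libraries, the same order of libraries as Spry1, Spry2 and Dusp6. Il17rd encodes Sef, a membrane protein that dampens FGF receptor and ERK signalling. Il17rd had 88.5 and 57.6 CPM in the Trim33-deficient libraries, against 54.4 and 58.5 CPM in the Control libraries. Trim33-deficient replicate 1 alone was high, and the other 3 libraries lay within a narrow band. The log2 fold changes were 0.23 for Spred1 and 0.37 for Il17rd, with standard errors of 0.24 and 0.23 and edgeR adjusted p of 0.804 and 0.708. Without Trim33-deficient replicate 1 they were −0.03 and 0.03.

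Etv4 and Etv5 encode ETS transcription factors that are induced by FGF signalling and carry out part of its response, so they are effectors rather than inhibitors. Etv4 had 21.4 and 18.1 CPM in the Trim33-deficient libraries, against 10.5 and 13.5 CPM in the Control libraries. Both Trim33-deficient libraries were above both Control libraries, at 19.8 ± 2.34 CPM in Trim33-deficient and 12.0 ± 2.10 CPM in Control bodies (SD, n = 2 each). It stood 0.72 higher on the log2 scale (standard error 0.24), which neither edgeR (adjusted p = 0.608) nor DESeq2 (adjusted p = 0.617) called. Etv4 was counted 297 and 212 times in the Trim33-deficient libraries, against 136 and 138 times in the Control libraries. Etv5, its close relative, had 45.4 and 34.9 CPM in the Trim33-deficient libraries, against 37.6 and 52.3 CPM in the Control libraries. It was the only member with a log2 fold change below 0, at −0.16 with a standard error of 0.23 (edgeR adjusted p = 0.854), and the only one whose highest library was a Control library. The sign of Etv5 turned without either replicate 2 library, to 0.10 without Control replicate 2 and 0.02 without Trim33-deficient replicate 2.

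**Figure D2:**
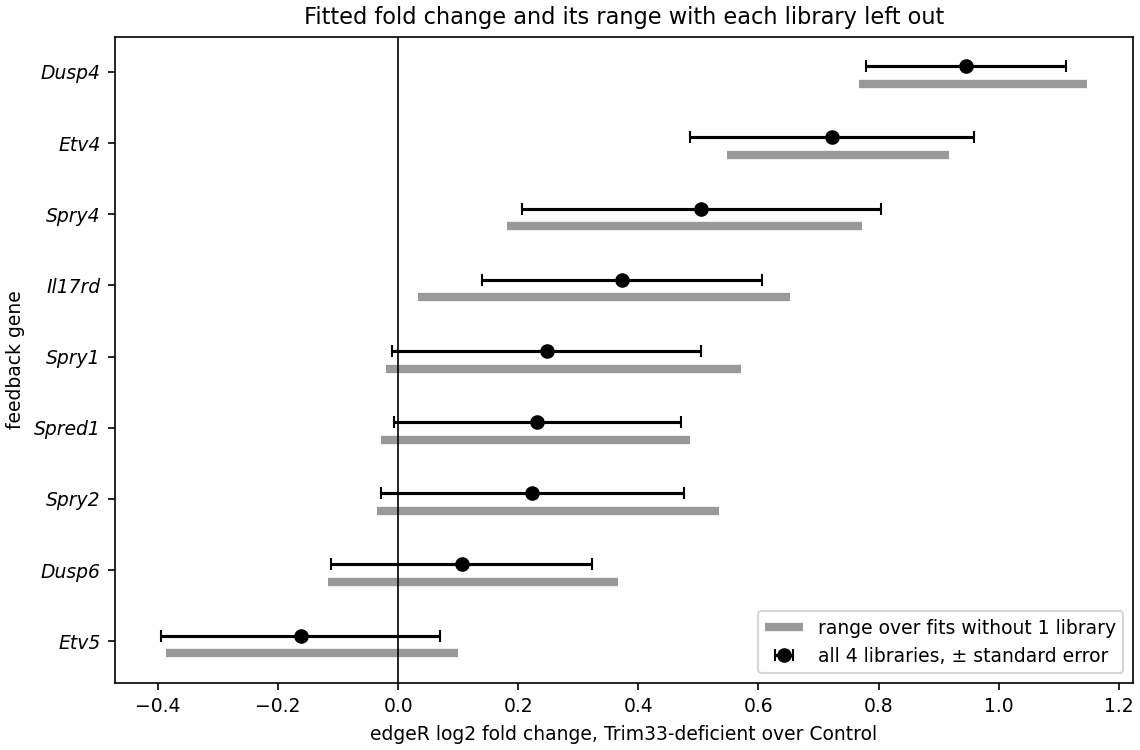
edgeR log2 fold change of each feedback gene (Trim33-deficient over Control, horizontal axis) with its standard error from all 4 libraries (black), and the range over the 4 fits without 1 library (grey). Dusp4 runs from 0.77 to 1.15 and Etv4 from 0.55 to 0.92, while the ranges of Dusp6, Spry1, Spry2, Spred1 and Etv5 include 0.

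Over the members as a group, 8 of 9 log2 fold changes were above 0, with a median of 0.25, where 49.8% of all genes tested were above 0 with a median of −0.001. The groups did not overlap, with Trim33-deficient higher, for 2 of 9 members or 22.2%, near the 19.3% of all genes. With Trim33-deficient lower, they did not overlap for 0 of 9 members, and for 21.4% of all genes. With 2 libraries against 2, an exact two-sided permutation test cannot give a p below 0.333, so single sums were not tested.

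The comparison within each replicate number was a description, since it sets 1 library against 1. Within replicate 1 the log2 differences were 1.07 for Dusp4, 1.02 for Etv4, 0.96 for Spry4 and 0.75 for Spry1. Spry2, Spred1, Il17rd and Dusp6 stood at 0.72, 0.70, 0.70 and 0.53, and Etv5 at 0.27. All 9 were above 0, as were 49.9% of all genes tested, and the median of the members was 0.72, against −0.001 for all genes. For each of the 9 members the 95% exact binomial interval for counting error lay above 0.

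Within replicate 2, Dusp4 was at 0.84 and Etv4 at 0.42, with counting intervals of 0.71 to 0.98 and 0.11 to 0.75. Spry4 and Il17rd were at −0.001 and −0.02, inside counting error of 0. Spry1, Spred1, Spry2, Dusp6 and Etv5 were below 0, at −0.23, −0.24, −0.26, −0.30 and −0.58, each with a counting interval below 0. The median of the members was −0.23, against 0.01 for all genes. In all, 7 of 9 members were higher within replicate 1 and lower within replicate 2, where 19.6% of all genes were. The 2 members higher within both numbers were 22.2% of the list, beside 30.3% of all genes. With RLE size factors in place of TMM, Spry4 moved just above 0 within replicate 2, making 3 members. These intervals cover counting error only, not the spread between bodies.

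**Figure D3:**
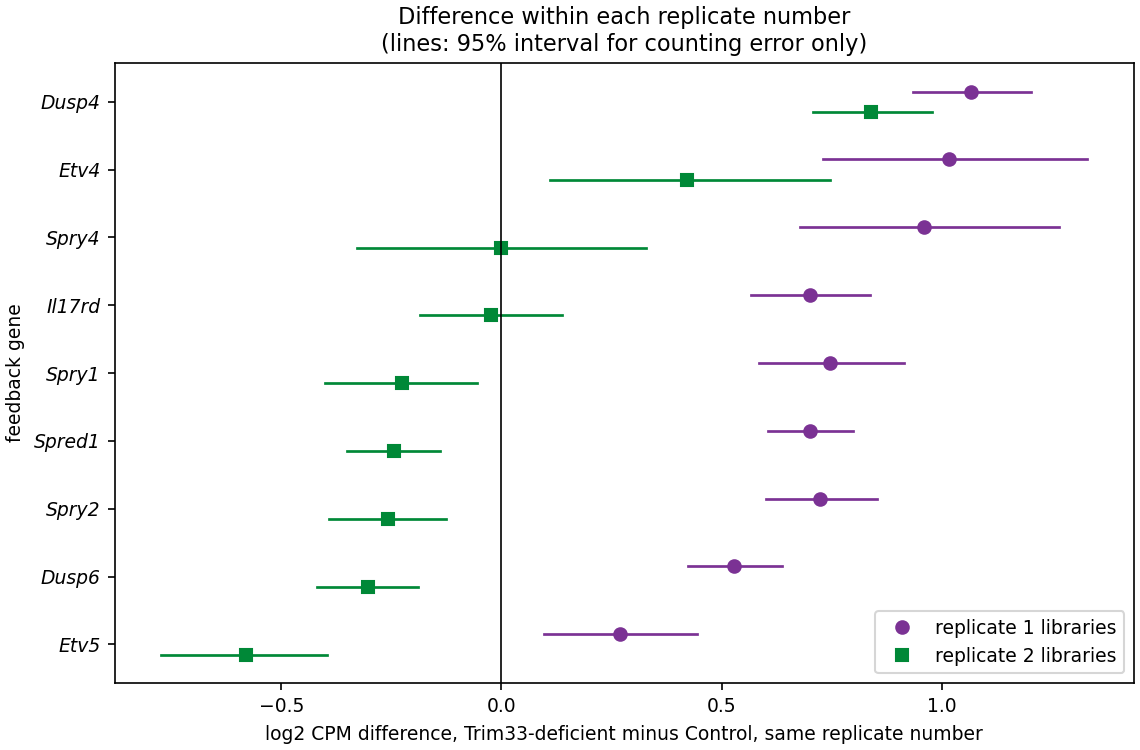
Difference in log2 CPM between the Trim33-deficient and the Control library of the same replicate number (horizontal axis) for each feedback gene, with 95% intervals for counting error. The replicate 1 values lie between 0.27 and 1.07, and in replicate 2 only Dusp4 (0.84) and Etv4 (0.42) lie above 0 by more than counting error.

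Most members varied together over the libraries, and Dusp4, Etv5 and Etv4 departed most from the shared profile. After each gene was centred on its own mean log2 CPM, the average of the 9 was 0.36 in Trim33-deficient replicate 1 and −0.01 in Trim33-deficient replicate 2, against −0.38 in Control replicate 1 and 0.03 in Control replicate 2. Their summed level was 751 and 590.4 CPM in the Trim33-deficient libraries, against 459.9 and 622 CPM in the Control libraries. Trim33-deficient replicate 1 was the highest library for 7 of 9 members, as for 18.3% of all genes, and Control replicate 1 the lowest for 8 of 9, as for 31.3% of all genes. Deviations from the group mean went opposite ways in same-numbered libraries for 8 of 9 members. The share of all genes for which they did so was not counted. Over all genes the deviations correlated at a Pearson value of 0.236 (14259 genes, which are not independent replicates).

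Spry1, Spred1 and Spry2 lay closest to the members' mean profile, at root-mean-square distances of 0.07, 0.08 and 0.08 in log2 CPM over the 4 libraries, and Dusp4 farthest, at 0.35. Of 10238 other genes with a mean of at least 10 CPM, the 5 nearest to that profile included 2810013P06Rik, Pcyt2, Lbh and Igsf10, at distances of 0.02, 0.03, 0.05 and 0.06. With only 4 libraries many genes share such a profile: 9 other genes were nearer to it than Spry1 and 6889 were nearer than Dusp4.

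Per kilobase of the longest GRCm38 transcript, Spry2 and Dusp6 were the most abundant members, at 43.1 and 42.1 CPM per kilobase in Trim33-deficient bodies and 37.0 and 39.2 in Control. Their order to each other differed between the groups by less than the spread between libraries. Dusp4 followed at 40.6 CPM per kilobase in Trim33-deficient bodies, level with Spry2 and Dusp6, and at 21.1 in Control, level with Spred1 at 20.8. Spred1 and Spry1 stood at 24.4 and 19.5 CPM per kilobase in Trim33-deficient bodies, and Spry1 at 16.4 in Control. Etv5, Il17rd and Etv4 came next, at 10.1, 8.82 and 8.25 CPM per kilobase in Trim33-deficient bodies and 11.3, 6.82 and 5.01 in Control, and their libraries overlapped in the Trim33-deficient group but not in Control. Spry4 was the lowest member in both groups, at 3.78 CPM per kilobase in Trim33-deficient bodies and 2.67 in Control, and in each library it was below all other members.

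The other genes of the pathway were read from 5 lists, of ligands, receptors, kinases, relatives of the members and downstream targets. Of their genes, 86 were tested. The edgeR quasi-likelihood test and limma voom called 0 of the 86, and 12, or 14.0%, had an unadjusted edgeR p under 0.05, as had 7.84% of all genes. DESeq2 called 2 of the 86, both lower and both receptor components, where it called 0.989% of all genes. Of 22 FGF ligand genes, 13 were abundant enough to test, with 4 above and 9 below 0 and a median log2 fold change of −0.40. The groups did not overlap, with Trim33-deficient lower, for 5 of the 13, as for 21.4% of all genes, and 7 of 13 were lower within both replicate numbers, as were 29.8% of all genes. Fgf15, the intestinal and neural endocrine FGF, had 22.1 and 11.5 CPM in the Trim33-deficient libraries, against 73.2 and 35.0 CPM in the Control libraries. At a log2 fold change of −1.68 (standard error 0.49) it was called by neither edgeR (adjusted p = 0.577) nor DESeq2 (adjusted p = 0.0537). DESeq2 with the replicate number as a block called it (adjusted p = 0.000162). DESeq2 also called it without Trim33-deficient replicate 1, at −2.22, and without Control replicate 2, at −2.11. The fit without Control replicate 2 called more genes than any other fit without 1 library. DESeq2 did not call it without Trim33-deficient replicate 2, at −1.29, or without Control replicate 1, at −1.06. Fgf11 and Fgf17 were at −1.57 and −1.94, from levels under 10 CPM in every library.

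Of the 13 tested ligands, 4 (30.8%) were, like most members, higher within replicate 1 and lower within replicate 2, where 19.6% of all genes were. These 4, Fgf3, Fgf8, Fgf9 and Fgf10, were picked out after their values were seen. Within replicate 2 Fgf3 was at −0.0006, inside counting error of 0, and Fgf9 was counted only 3 and 11 times. The counting interval of Fgf9 within replicate 1, −0.47 to 1.80, included 0. Fgf8 and Fgf10, which pattern the second heart field among other tissues, were the most abundant of them. Fgf8 had 34.1 and 5.30 CPM in the Trim33-deficient libraries, against 16.7 and 20.5 CPM in the Control libraries. Fgf10 had 30.9 and 28.4 CPM in the Trim33-deficient libraries, against 12.1 and 36.8 CPM in the Control libraries. Neither ligand separated the groups, with log2 fold changes of 0.09 and 0.28 and standard errors of 0.84 and 0.53. With 1 library left out, the edgeR values ran from −1.81 to 0.88 for Fgf8 and from −0.32 to 1.29 for Fgf10. DESeq2 called Fgf10 in 1 of these 4 fits, without Control replicate 2, the fit that called the most genes.

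Receptors and adaptors had a median log2 fold change of −0.001 over 15 tested genes, with 7 above and 8 below 0. Klb, the beta-Klotho co-receptor of endocrine FGFs, had 1.44 and 1.79 CPM in the Trim33-deficient libraries, against 10.1 and 8.98 CPM in the Control libraries. Fgfr4, the receptor that Klb partners in liver, had 4.40 and 2.73 CPM in the Trim33-deficient libraries, against 13.6 and 14.6 CPM in the Control libraries. Their log2 fold changes were −2.56 and −1.98, with standard errors of 0.32 and 0.33 and edgeR adjusted p of 0.252 and 0.395. DESeq2 called both (adjusted p = 0.000247 and 0.00300). Without 1 library, Klb kept its DESeq2 call only when Control replicate 2 was left out, the fit that called the most genes. Fgfr4 lost its call in all 4 fits. Their DESeq2 log2 fold changes in these fits ran from −2.73 to −2.40 for Klb and from −2.36 to −1.68 for Fgfr4. The authors' deposited table lists them at −2.55 and −1.98 (adjusted p = 0.0281 and 0.0496). Ptpn11, encoding the SHP2 phosphatase that carries signals to RAS, was at 333 and 332 CPM in the Trim33-deficient libraries, against 243 and 249.9 CPM in the Control libraries, a log2 fold change of 0.43 that neither tool called (edgeR adjusted p = 0.529, DESeq2 adjusted p = 0.171).

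The kinase cascade had a median close to 0. All 19 of its genes were tested, with 10 above and 9 below 0, values from −0.47 to 0.48 and a median of 0.03. The groups did not overlap, with Trim33-deficient higher, for 8 of 19 (42.1%), as for 19.3% of all genes. With Trim33-deficient lower, they did not overlap for 5 of 19, as for 21.4% of all genes. Within both replicate numbers 10 of 19 (52.6%) were higher and 6 lower, where 30.3% and 29.8% of all genes were. Map2k1 (MEK1) was at −0.47 with a standard error of 0.16, Rps6ka1 (the ERK-activated kinase RSK1) at −0.37 with 0.11, and Rasa1 (a RAS GTPase-activating protein) at 0.26 with 0.12. Their edgeR adjusted p lay between 0.595 and 0.664.

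Among relatives of the members, 11 of 15 tested genes were above 0, where 49.8% of all genes were, with a median of 0.20. Of the 15, 5 (33.3%) were higher within both replicate numbers, near the 30.3% of all genes. The groups did not overlap, with Trim33-deficient higher, for 3 of 15 (20.0%), near the 19.3% of all genes. Spry3 had no count in any library. Dusp10, a phosphatase that prefers the JNK and p38 kinases, had 18.0 and 24.3 CPM in the Trim33-deficient libraries, against 10.7 and 13.0 CPM in the Control libraries. It separated the groups as Dusp4 did, at a log2 fold change of 0.84 with a standard error of 0.25 that was not called (edgeR adjusted p = 0.594, DESeq2 adjusted p = 0.459). Dusp16 and Dusp8, of the same JNK and p38 class, were at 0.31 and 0.53. The groups of Dusp8 overlapped, with −0.04 within replicate 1 and 1.11 within replicate 2.

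Among ERK immediate early and response genes 20 of 24 log2 fold changes were above 0, the median was 0.32, and 16 of 24 were higher within both replicate numbers, where 30.3% of all genes were. Of the members, 2 of 9 were. For 10 of the 24, or 41.7%, the groups did not overlap and Trim33-deficient was higher, as for 19.3% of all genes. Trim33-deficient replicate 2 was the highest library for 16 of the 24, as for 28.4% of all genes, and for 1 of the 9 members. The AP-1 subunit genes Fosl1 and Fosl2 were at 1.20 and 1.02, with standard errors of 0.33 and 0.35, and Phlda1, an ERK-inducible gene, at 0.60 with 0.18. Fosl2 had 75.7 and 149 CPM in the Trim33-deficient libraries, against 49.8 and 60.9 CPM in the Control libraries, so its highest library was Trim33-deficient replicate 2. None of these 3 genes was called over the 4 libraries by edgeR (adjusted p between 0.552 and 0.621) or DESeq2 (0.242 to 0.347), but DESeq2 with the replicate block called Fosl2 (adjusted p = 0.0430). With 1 library left out, DESeq2 did not call Fosl2 without Trim33-deficient replicate 2, at 0.45, or without Control replicate 1, at 0.88. It called Fosl2 without Trim33-deficient replicate 1, at 1.45, and without Control replicate 2, at 1.19. Phlda1 was called without Control replicate 2, at 0.85, and not in the other 3 such fits, at 0.40 to 0.66. The fit without Control replicate 2 called the most genes of the 4.

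**Figure D4:**
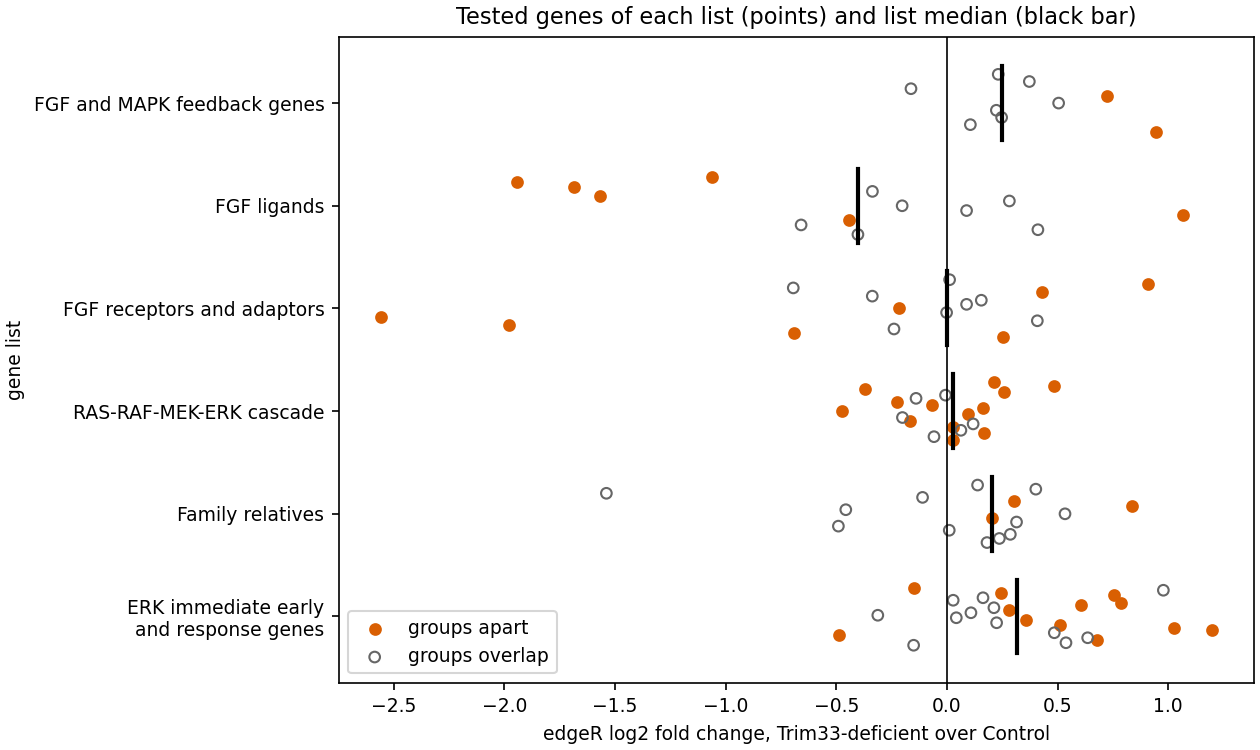
edgeR log2 fold changes (Trim33-deficient over Control, horizontal axis) of the tested genes in the feedback list and the 5 pathway lists, with filled points where the groups do not overlap and black bars for the list medians. Medians run from −0.40 for FGF ligands to 0.32 for ERK immediate early and response genes, with Klb (−2.56) the lowest point.

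Embryoid bodies hold many cell types, and in bulk RNA fewer cells of a type and less RNA per cell cannot be told apart. Summed levels of 7 marker lists of 8 genes each differed between the 4 libraries. Cardiomyocyte markers summed to 1575 and 424 CPM in the Trim33-deficient libraries, against 207 and 562 CPM in the Control libraries. That is the same order of libraries as for the summed feedback genes, with Trim33-deficient replicate 1 highest, then Control replicate 2, Trim33-deficient replicate 2 and Control replicate 1. Among single members, Dusp4, Etv4 and Etv5 had other orders. Spry4 and Il17rd had the cardiomyocyte order only by replicate 2 differences inside counting error, at −0.001 and −0.02 on the log2 scale. The share of all genes with that order was not counted. All 8 cardiomyocyte markers were higher within replicate 1 and 2 of 8 within replicate 2, as were 49.9% and 50.6% of all genes. Actc1, the cardiac actin gene, was the most abundant of these markers. The part of heart cells in the feedback genes' levels was not tested.

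Other marker lists ordered the libraries differently. Smooth muscle and fibroblast markers, led by the collagen gene Col3a1, summed to 3547 and 9524 CPM in the Trim33-deficient libraries, against 978 and 5574 CPM in the Control libraries. All 8 were higher within both numbers, as were 30.3% of all genes. Neuroectoderm markers summed to 389 and 315 CPM in the Trim33-deficient libraries, against 819.5 and 369 CPM in the Control libraries, with Control replicate 1 highest and Nes the most abundant. Visceral endoderm markers summed to 86.0 and 74.7 CPM in the Trim33-deficient libraries, against 904 and 968 CPM in the Control libraries, with Afp the most abundant. For all 8 the groups did not overlap, with Trim33-deficient lower, as for Klb, Fgfr4 and 21.4% of all genes. A link of Klb and Fgfr4 to these cells was not tested. Pluripotency markers summed to 282 and 267 CPM in the Trim33-deficient libraries, against 422 and 332 CPM in the Control libraries, with Sall4 the most abundant. Hematopoietic and endothelial markers, led by Kdr, summed to 267 and 460.0 CPM in the Trim33-deficient libraries, against 182 and 523 CPM in the Control libraries. Paraxial and presomitic mesoderm markers, led by Dll1, summed to 27.3 and 19.3 CPM in the Trim33-deficient libraries, against 69.5 and 27.2 CPM in the Control libraries, and 1 of the 8 had no count in any library. The part of these cell types in the feedback genes' levels was not tested either.

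**Figure D5:**
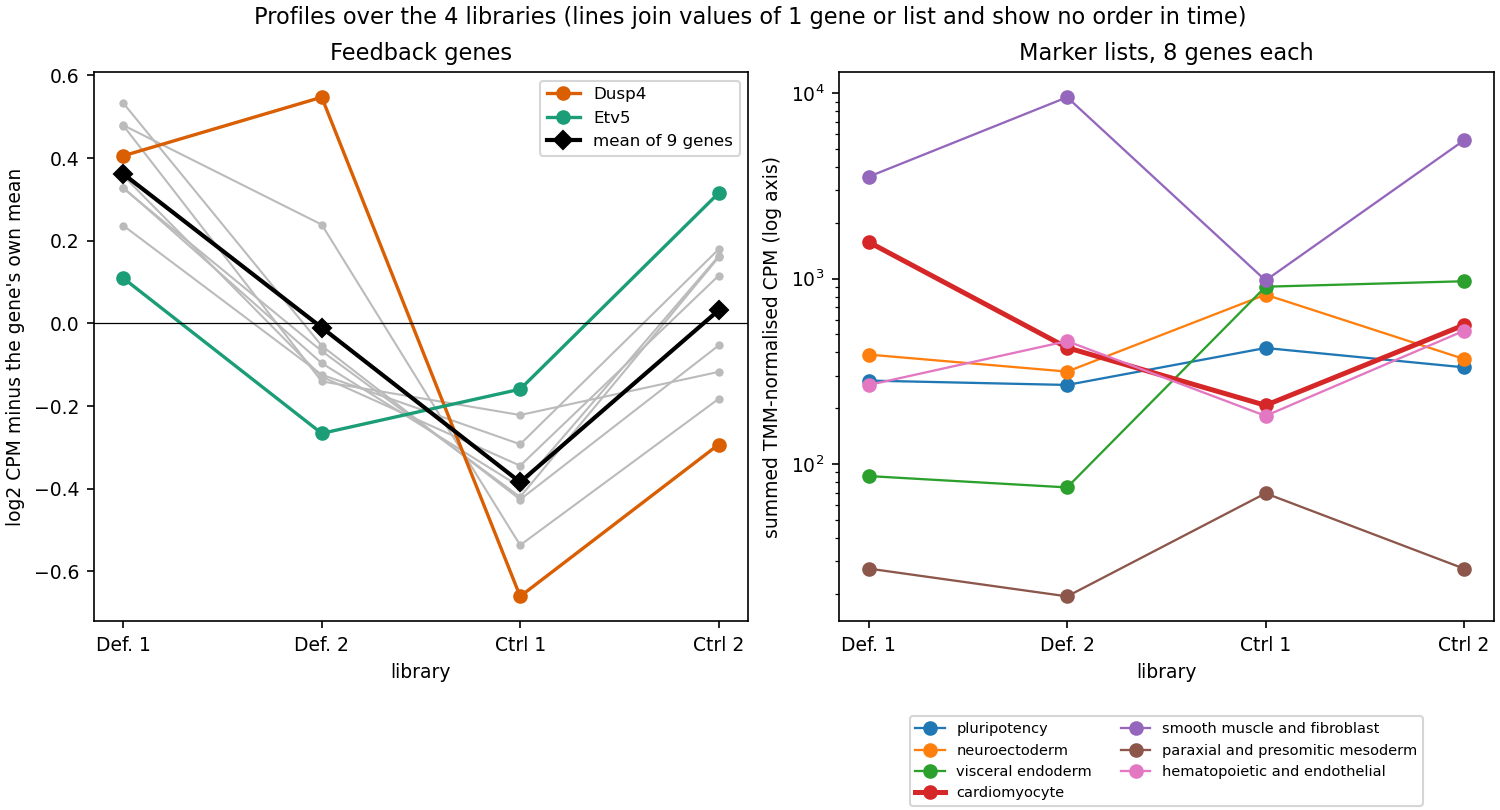
Left, log2 CPM of each feedback gene minus its own mean (vertical axis) in the 4 libraries, with Dusp4, Etv5 and the mean of the 9 genes (0.36, −0.01, −0.38 and 0.03) drawn in colour and black. Right, summed CPM of 7 marker lists on a log axis, where cardiomyocyte markers (thick line, 1575, 424, 207 and 562 CPM) follow the same order of libraries as the summed feedback genes.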

How the data were processed

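RNA of 4 libraries, 2 Trim33-deficient and 2 Control, was sequenced per the labels' protocols from total RNA with standard Illumina libraries. Per the submitters' processing notes, the tools were STAR, HTSeq and DESeq on mouse build mm9; versions are not given in these notes. Each deposited file lists raw counts by gene symbol. Reads assigned to no feature made up 55.5% to 56.0% of each file and stayed out of library sizes, as did ambiguous reads, at most 0.200%. From the table of the authors' own DESeq comparison only the log2 fold change and the p-values were used, as named per the file headers. The headers do not name its direction, which was read as Trim33-deficient over Control because all 83 genes compared had the sign of the DESeq2 value computed here.

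Genes were filtered with filterByExpr, scaled by TMM and tested over all 14259 genes with edgeR 4.0.16 in R 4.3.3 (quasi-likelihood, two-sided, Benjamini-Hochberg, threshold 0.05), without a replicate block. A standard error was obtained as the absolute log2 fold change over the root of the F statistic. A prior count of 2 went into log2 CPM. DESeq2 1.42.0, voom from limma 3.58.1 and edgeR's likelihood ratio test were run as alternatives, beside other scalings and filters, the block, and each library left out. The DESeq2 fits without single libraries were added after seeing the data. The scripts were tested on simulated data. Transcript lengths and positions are those of GENCODE on GRCm38, not mm9.

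The members and lists were chosen with earlier results of these data known. Named genes were the 9 members, Trim33, the 3 tested genes with the smallest p in each pathway list, the 5 nearest profiles (1 of which is not reported here) and the most abundant gene of each marker list. Because the labels speak of pairs, same-numbered libraries were taken as pairs, and over genes their deviations from the group means had a Pearson correlation of 0.236 and a Spearman correlation of 0.207. Replicates differed by more than sampling noise, with a chi-square per degree of freedom of 24.3 for the Trim33-deficient and 35.7 for the Control pair of replicates. Separate lines or cultures are not stated for the replicates, and the p-values then cover only the spread among these libraries, which may be technical.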

Additional observations from a re-analysis of the deposited data

How the results depend on the processing

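No member passed the threshold with edgeR's quasi-likelihood test under the other scalings, filters or the replicate block, in the 4 fits without 1 library, or with limma voom. Members called numbered 1, Dusp4, with DESeq2, with the likelihood ratio test and with DESeq2 under the replicate block, and 0 to 1 with a library left out. The replicate block changed no member's call within either tool. Over all genes, calls numbered 2 in the main test, 141 with DESeq2, 169 with the likelihood ratio test, 0 with limma voom, 14 with no filter, 187 with DESeq2 under the replicate block and 2 with edgeR under it. With a library left out, calls ranged from 0 to 91 with edgeR and stood at 54, 48, 85 and 676 with DESeq2 (without Trim33-deficient replicates 1 and 2, then without Control replicates 1 and 2). The cause was not tested.

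Leaving out a library turned the sign of 5 members. With edgeR, Dusp6 ranged from −0.117 to 0.366, Spry1 from −0.0207 to 0.572, Spry2 from −0.0352 to 0.535, Spred1 from −0.0284 to 0.485 and Etv5 from −0.387 to 0.0999. With DESeq2, without Trim33-deficient replicate 1, Dusp6 was −0.0729 and Spred1 −0.0189. Without Control replicate 1, DESeq2 gave −0.114 for Dusp6, −0.0183 for Spry1 and −0.0327 for Spry2. For Etv5 it gave 0.0132 without Trim33-deficient replicate 2 and 0.110 without Control replicate 2. These DESeq2 fits were chosen after seeing the data. In every fit with a library left out, the lone library is taken to vary as much as the remaining pair does. The members higher within both numbers numbered 2 with total counts or a smaller prior count, and 3 with RLE size factors.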
